A study of Mus musculus with 21 samples.

Results

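The 34 genes described here encode the enzymes of glycolysis, the transporters that carry glucose in and lactate out, the enzymes that regulate the flow, and the hypoxia sensing machinery with several of its targets. They were listed by symbol and matched by gene ID, which found all 34 of 34 among the 27179 genes of the count table, and all 34 of them passed the filter on low counts that left 13275 genes for testing. RNA sequencing covered 21 libraries of sorted C57BL/6 mouse cells, with 3 libraries in each of 7 groups. Cardiac macrophages were sorted from hearts of untreated (naive) mice and of mice challenged with CAWS, a water-soluble extract of Candida albicans that gives mice a vasculitis used as a model of Kawasaki disease. The macrophages of each pool were split by their surface markers into 3 populations. R1 cells lacked Ccr2 and were low in MHC-II, R2 cells lacked Ccr2 but were high in MHC-II, and R3 cells carried Ccr2 together with high MHC-II. The last group held Ccr2-positive monocytes from spleens of naive mice, and no monocyte group from challenged mice was analysed here. Each library came from a pool of mice, and the R1, R2 and R3 libraries of 1 treatment came from the same 3 pools. The labels give no age, sex or time after challenge. Libraries held between 12800136 and 23006155 counts (median 16763449). Levels are given as CPM, the library's share of counts scaled up by the usual factor, on library sizes scaled by the TMM method. In bulk libraries, fewer cells of a type and less RNA per cell cannot be told apart.

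Glycolysis splits glucose into pyruvate in the cytosol, and macrophages raise it when they are activated by microbial products, sending much of the pyruvate to lactate. The transcription factor Hif1a, stabilised when oxygen is low or when inflammatory signals act, binds a short core sequence and switches on many genes of this pathway, while the Egln enzymes mark Hif1a for destruction when oxygen is present. Because Hif1a is regulated mainly as a protein, its RNA level does not report its activity.

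With CAWS, Pfkp rose in R2, Slc2a6 in R2 and R3 and Gpi1 in R1, R2 and R3, while P4ha2 fell in R1 and R3. The upstream sequences of these 4 members, which carry the main patterns, are shown first. They are the 250 bases before the annotated start site on the transcribed strand, written 5′ to 3′, from RefSeq on GRCm38.p6. Capitals mark the hypoxia response core, ACGTG or GCGTG, read on either strand. This core also lies within the E-box CACGTG, which other factors bind.
Pfkp (chr13:6648772-6649021, minus strand): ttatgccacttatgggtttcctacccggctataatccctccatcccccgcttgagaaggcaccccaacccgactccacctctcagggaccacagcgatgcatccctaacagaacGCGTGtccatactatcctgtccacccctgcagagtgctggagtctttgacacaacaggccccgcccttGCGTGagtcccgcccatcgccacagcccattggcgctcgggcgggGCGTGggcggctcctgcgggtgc
Slc2a6 (chr2:27027999-27028248, minus strand): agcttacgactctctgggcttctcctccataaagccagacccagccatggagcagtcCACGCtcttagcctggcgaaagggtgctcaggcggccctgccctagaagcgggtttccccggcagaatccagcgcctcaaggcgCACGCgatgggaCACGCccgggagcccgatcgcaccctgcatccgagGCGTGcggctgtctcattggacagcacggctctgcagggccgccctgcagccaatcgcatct
P4ha2 (chr11:54100674-54100923, plus strand): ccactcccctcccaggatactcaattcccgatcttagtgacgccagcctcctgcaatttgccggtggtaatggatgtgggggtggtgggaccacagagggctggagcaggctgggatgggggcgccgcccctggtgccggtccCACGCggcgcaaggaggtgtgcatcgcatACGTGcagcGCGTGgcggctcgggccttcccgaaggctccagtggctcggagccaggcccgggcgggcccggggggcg
Gpi1 (chr7:34230337-34230586, minus strand): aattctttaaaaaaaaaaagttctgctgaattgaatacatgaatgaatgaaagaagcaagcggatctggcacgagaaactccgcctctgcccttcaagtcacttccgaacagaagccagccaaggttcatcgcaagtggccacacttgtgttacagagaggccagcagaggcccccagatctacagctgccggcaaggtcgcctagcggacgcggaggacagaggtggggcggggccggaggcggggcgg
The core stood 3 times in the Pfkp window, 4 times in that of Slc2a6, 3 times in that of P4ha2 and 0 times in that of Gpi1. RefSeq windows were found for 33 of the 34 members, 49 windows in all since some genes have several start sites, and 42 of them (85.7%) held the core. Over all 32851 RefSeq windows of the same length the share was 38.6%, and over the 12978 windows of genes tested here it was 54.6%. Windows of nearby start sites can overlap and hold the same match, so they are not independent. Counted by member, 31 of 33 held the core in at least 1 window, and no such share was made for all genes. A match is only a match of letters: no binding was measured in these samples.

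Among the 17 glycolytic enzymes, the levels per length ran from a few abundant enzymes to very low ones. In naive R1 the highest mean CPM per kilobase of exonic sequence were those of Aldoa (147), the aldolase that splits fructose bisphosphate, Pkm (123), the pyruvate kinase, Ldha (103), the lactate dehydrogenase subunit, Gpi1 (86.5), the glucose phosphate isomerase, and Tpi1 (78.3), the triose phosphate isomerase. Gapdh (1.16) and Pgk1 (1.52), which catalyse the steps after Tpi1, stood far below their neighbours in the pathway on this scale. Of the 50-base words in the longest coding GENCODE transcript of Gapdh, 82.5% also occur in transcripts of 222 other genes, 213 of them pseudogenes. By the same measure the shares were 72.2% for Eno1, 68% for Pgk1, 62.4% for Bnip3, 41.5% for Pgam1 and 34.4% for Pkm. Lower shares were found for Gpi1 (25.3%), Pfkp (17.1%) and Aldoa (13.5%), and the share was 0 for Slc2a6 and P4ha2. The labels do not say how reads with several matches were counted, so the counts of genes with shared sequence are uncertain. The part of shared sequence in their levels was not tested.

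Summed over the 17 enzymes, the CPM were highest in the monocytes and higher in the CAWS than in the naive libraries of each macrophage population. The sums were 1630, 1614 and 1634 in the naive R1 libraries and 1865, 2001 and 1979 in CAWS R1. In R2 they were 1718, 1611 and 1598 for naive and 2005, 2303 and 2181 for CAWS. In R3 they were 2211, 2188 and 2172 for naive and 2661, 2716 and 2616 for CAWS, and in the monocytes 3580, 4059 and 3495. Naive R1 overlapped naive R2 and naive R3 overlapped CAWS R2, while within each population no CAWS library overlapped a naive one. Abundant enzymes weigh most in such a sum. From naive to CAWS R1 the mean CPM went from 247 to 359 for Gpi1, 268 to 362 for Aldoa and 319 to 385 for Pkm. Hk2 (59.6 to 46.4) and Hk3 (128 to 97.2) went the other way. By the test given below, 4 (23.5%), 7 (41.2%) and 3 (17.6%) of the 17 enzymes rose in R1, R2 and R3. The shares of all genes were 6.07%, 6.79% and 6.7%.

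**Figure D1:**
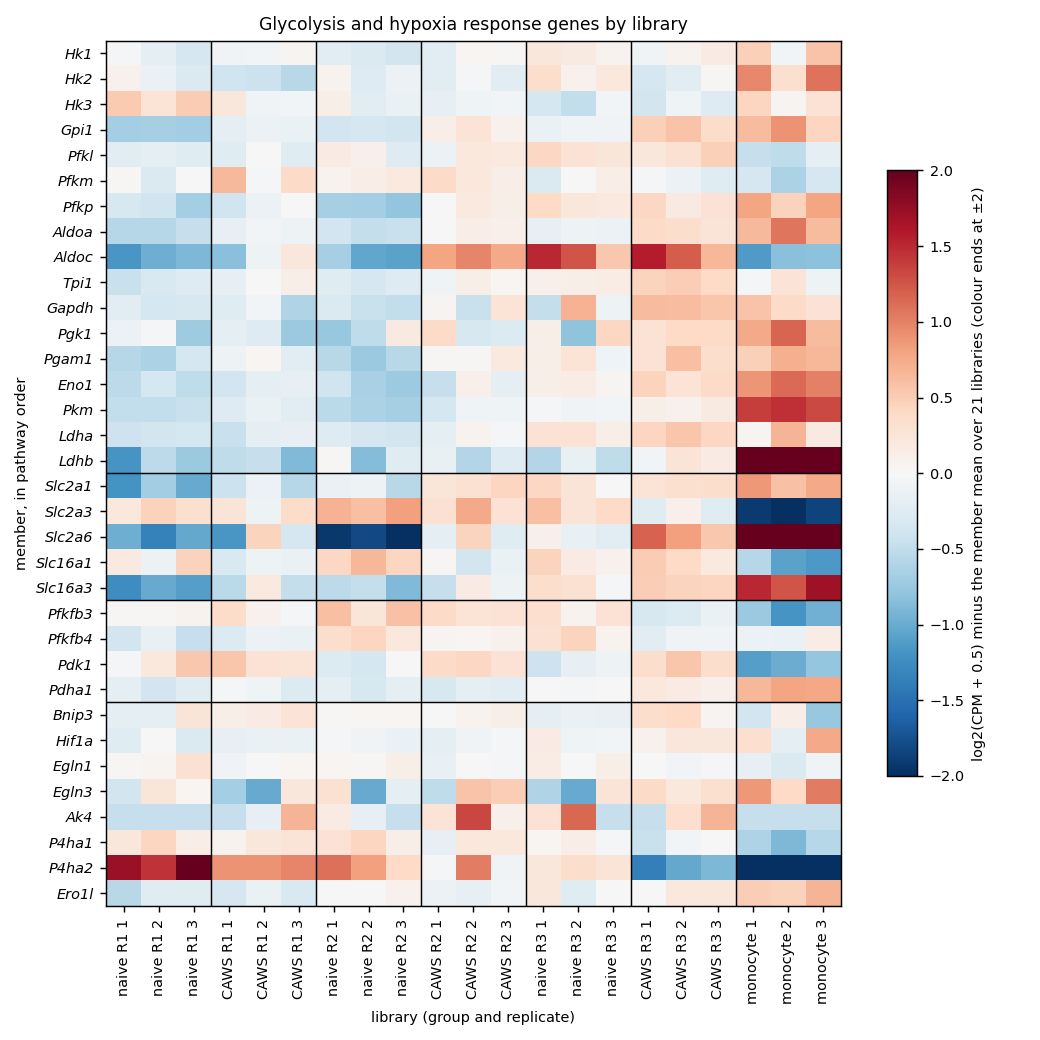
Each square is 1 of the 34 members (rows, in pathway order) in 1 of the 21 libraries (columns), coloured by log2(CPM + 0.5) minus the member's mean over the libraries. Horizontal lines part enzymes, transporters, flux regulators and the hypoxia set. Slc2a6 and Ldhb are highest and Slc2a3 and P4ha2 lowest in the 3 monocyte libraries, and Gpi1 and Aldoa are higher in the CAWS than in the naive columns of each population.

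The first question was which members changed in each macrophage population when mice were challenged with CAWS. In R1, 6 of 34 members rose (17.6%) and 1 fell. Of all 13275 genes tested, 8.94% passed, 6.07% higher and 2.87% lower. In R2, 10 members rose (29.4%) and 1 fell, where 10.3% passed, 6.79% higher and 3.5% lower. In R3, 5 members rose (14.7%) and 4 fell, where 15% passed, 6.7% higher and 8.29% lower. The median log2 fold change of the members was 0.15 in R1, 0.26 in R2 and 0.16 in R3, and over all genes it was 0.026, 0.023 and -0.059. Values written as ± in parentheses are log2 fold changes with their standard errors and edgeR adjusted p-values. Gpi1 and Aldoa rose in R1, R2 and R3, 12 members rose in at least 1 population, 5 fell in at least 1, 17 passed the test in none and 0 passed in both directions. The count in R1 depended on single libraries: it was 7 with all of them, 2 without naive R1 replicate 1, 3 without naive R1 replicate 3, 3 without CAWS R1 replicate 2 and 4 without CAWS R1 replicate 3. The count of 11 in R2 became 7 without CAWS R2 replicate 2, and that of 9 in R3 became 3 without CAWS R3 replicate 1 and 5 without naive R3 replicate 1. Over all genes tested the counts fell as well when 1 library was left out. They were 673 to 893 in R1 (1187 with all libraries), 726 to 1022 in R2 (1365) and 973 to 1887 in R3 (1991).

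Marker genes of other cell types changed with the challenge as well: classical monocyte markers rose in number 2, 4 and 2 of 6 in R1, R2 and R3, and dendritic cell markers in number 4, 6 and 0 of 7. The summed level of 6 classical monocyte markers (Ly6c2, Ccr2, Plac8, Chil3, Vcan and F10) was 12.7 to 27.1 CPM in naive R1 and 59.7 to 225 in CAWS R1, 22.4 to 41.4 and 229 to 306 in R2, and 2077 to 2653 and 3559 to 4242 in R3, against 7491 to 11290 in the monocytes. Most of this sum in R2 and R3 was Ccr2, a marker by which the populations were sorted. Its means were 29.3 (naive) and 231 (CAWS) in R2 and 2390 (naive) and 3667 (CAWS) in R3. The change of Ccr2 in R3 did not pass (0.62 ± 0.27, edgeR adjusted p = 0.133). The sum of 7 conventional dendritic cell markers was 8.75 to 10.9 and 20.1 to 52.1 CPM in naive and CAWS R1, 16.7 to 20.6 and 121 to 334 in R2, and 276 to 539 and 225 to 403 in R3. The 4 markers of resident cardiac macrophages (Timd4, Lyve1, Folr2 and Cd163) summed to 5427 to 6034 and 3109 to 4134 CPM in naive and CAWS R1, 2138 to 2667 and 1826 to 2062 in R2, 1017 to 2095 and 298 to 366 in R3, and 7.40 to 17.5 in the monocytes. None of these 17 genes was at 0 in any group. Of 6 endothelial markers, 3 rose in R1 and 3 in R2, with sums of 13.3 to 16.7 (naive) and 29.98 to 47.4 (CAWS) in R1 and 18.6 to 22.8 (naive) and 39.1 to 45.1 (CAWS) in R2. Of 7 cardiomyocyte markers, Actc1 and Tnni3 rose in R1 and Tnnt2 fell in R3, with sums of 19 to 36.7 (naive) and 40.3 to 50.2 (CAWS) in R1, 42.9 to 70.97 and 49.9 to 98.9 in R2 and 53.6 to 71.6 and 32.8 to 42.3 in R3. Of the neutrophil markers, only Csf3r rose in R1 and R3, and no other one tested passed there. The 7 listed summed to 45.1 to 49.6 (naive) and 66.4 to 80.97 (CAWS) in R1 and 52.6 to 65.05 (naive) and 104 to 109 (CAWS) in R3. Most of these sums was Csf3r itself, with means of 44.2 (naive) and 69.55 (CAWS) in R1 and 54.7 (naive) and 103.6 (CAWS) in R3. Ly6g was at 0 counts in all 6 macrophage groups. The T cell marker Lck rose in R1, from 0 counts in naive R1 to a mean of 1.29 CPM. Of the 7 T cell markers listed, 6 were at 0 counts in naive R1 and 1, Cd3d, in CAWS R1. Of 4 tested NK cell markers, 3 rose in R1, where all 6 listed summed to 0.993 to 2.00 (naive) and 5.94 to 22.9 (CAWS). The part of these cells in the changes of the members was not tested. The 6 general macrophage markers summed to 15950 to 17140 CPM in naive R1 and 15410 to 16540 in CAWS R1. Their sums were 16280 to 17920 (naive) and 14710 to 15830 (CAWS) in R2, and 12020 to 13240 (naive) and 10800 to 11540 (CAWS) in R3. Csf1r fell in R2 (edgeR adjusted p = 0.0394) and R3 (0.00854), Adgre1 rose in R1 (0.039) and R3 (0.0208), and no other of these markers passed.

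**Figure D2:**
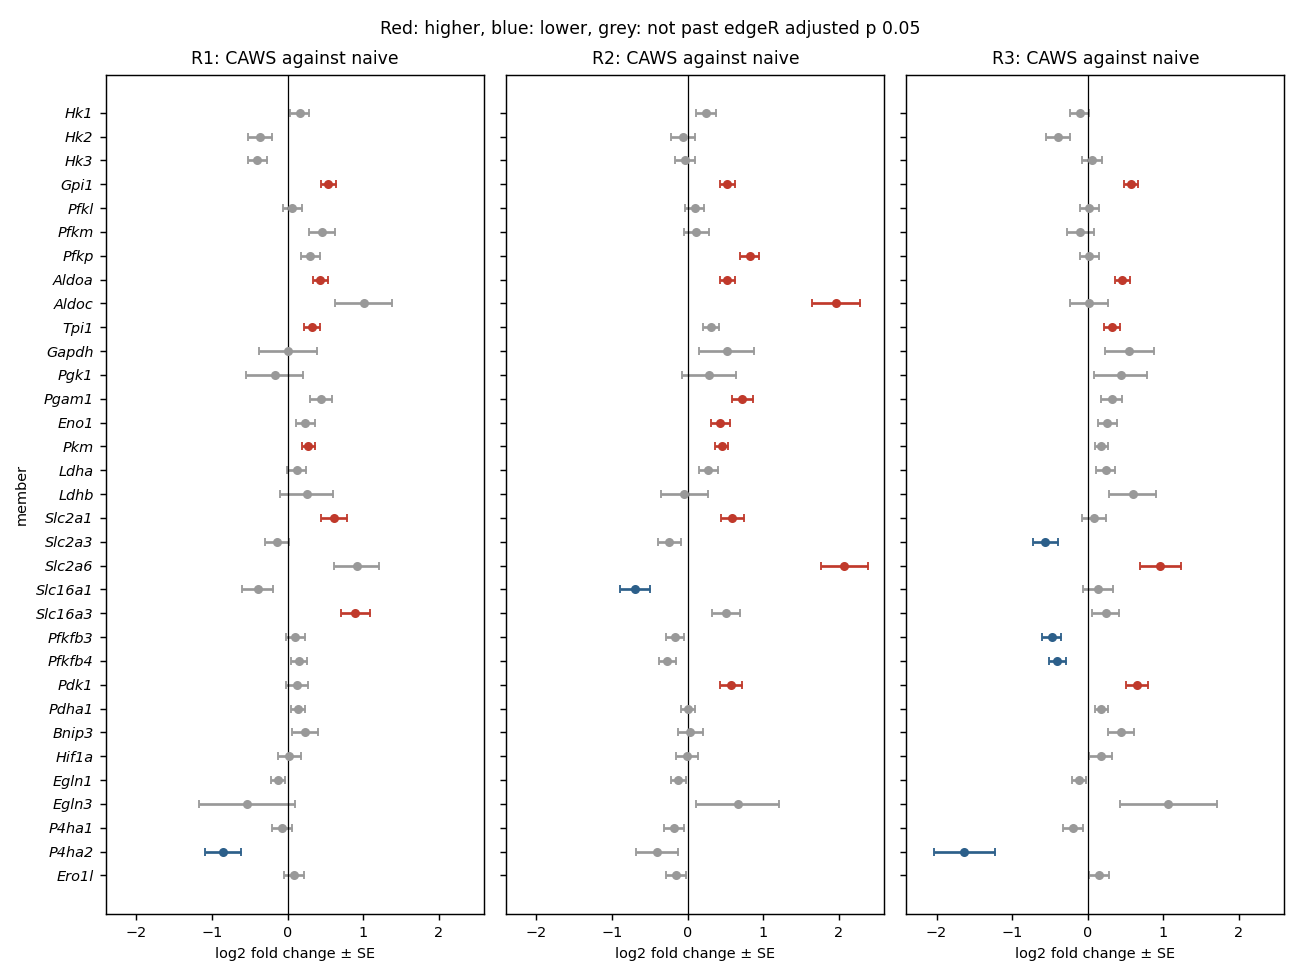
Log2 fold change of CAWS against naive with its standard error (x axis) for 33 members (y axis) in R1, R2 and R3, 3 libraries in each group. The values come from the edgeR fit of all 21 libraries together. Red marks members higher and blue members lower past adjusted p 0.05, and Ak4 is not drawn because its counts are near 0. Gpi1 and Aldoa are red in each panel, Aldoc and Pfkp only in that of R2.

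At the entry of the pathway the hexokinases, which phosphorylate glucose, passed the test in 0 of 3 populations. Hk3, the abundant hexokinase of myeloid cells, measured 136, 114 and 134 CPM in naive R1 and 111, 89.7 and 91.3 in CAWS R1, with no overlap and a log2 difference of -0.40 ± 0.13 (SE), edgeR adjusted p = 0.0572. Hk2, the inducible hexokinase, gave a log2 difference of -0.37 in R1 (adjusted p 0.17) and -0.39 in R3 (0.102), and Hk1 between -0.11 and 0.24 (adjusted p 0.266 to 0.614), all by edgeR.

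Gene coordinates below are those of RefSeq on GRCm38.p6. Gpi1 (gene ID 14751, chr7:34201327-34230336), which turns glucose 6-phosphate into fructose 6-phosphate, rose by a like factor in each population. Its levels were 247, 251 and 244 CPM in naive R1 and 350.2, 365 and 361 in CAWS R1, 304, 311 and 305 (naive) and 427, 476 and 421 (CAWS) in naive and CAWS R2, and 361, 373 and 378 (naive) and 550.3, 586 and 513 (CAWS) in naive and CAWS R3. Every CAWS library stood above every naive library of its population. The log2 fold change was 0.54 ± 0.10 (SE), edgeR adjusted p = 0.00101 in R1, 0.53 ± 0.10 (SE), edgeR adjusted p = 0.000825 in R2 and 0.57 ± 0.10 (SE), edgeR adjusted p = 0.000314 in R3. The monocytes measured 617, 734 and 535 CPM. The words of 50 bases that its longest coding transcript shares with other genes make up 25.3%.

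The phosphofructokinases commit the sugar to glycolysis, and among them Pfkp, the platelet type, changed in R2. Pfkp (gene ID 56421, chr13:6579874-6649060) measured 43.6, 43.2 and 40.1 CPM in naive R2 and 68.9, 79.2 and 75.2 in CAWS R2, a log2 fold change of 0.82 ± 0.13 (SE), edgeR adjusted p = 0.000145. In R1 the values were 55.2, 52.5 and 43.2 in naive and 52.3, 63.9 and 69.5 in CAWS libraries, which overlapped (0.30 ± 0.13, adjusted p = 0.155). In R3 they were 91.7, 81.1 and 79.3 (naive) and 92.8, 78.4 and 84.9 (CAWS), overlapping as well (0.022 ± 0.12, adjusted p = 0.927). Each CAWS R2 library thus stood above naive R2 and below naive R3, and the monocytes were at 121, 95.8 and 121. Pfkl, the liver type, and Pfkm, the muscle type, passed in 0 populations, with log2 differences from 0.023 to 0.092 and from -0.10 to 0.46.

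The aldolases both rose in R2, by unequal factors. Aldoa (gene ID 11674, chr7:126795234-126800994) measured 262, 262 and 281 CPM in naive R1 and 347, 374 and 364 in CAWS R1, 296, 279.8 and 285 (naive) and 391, 426 and 418 (CAWS) in R2, and 348, 361 and 359 (naive) and 508, 496 and 464 (CAWS) in R3, with no overlap in any of the 3 pairs. Its log2 fold changes were 0.43 ± 0.10 (SE), edgeR adjusted p = 0.00852 in R1, 0.52 ± 0.10 (SE), edgeR adjusted p = 0.00124 in R2 and 0.46 ± 0.10 (SE), edgeR adjusted p = 0.00301 in R3, and the call in R1 was lost without naive R1 replicate 1 (adjusted p 0.0547), naive R1 replicate 2 (0.0601) or CAWS R1 replicate 2 (0.0648). Aldoa was highest in the monocytes, with 609, 819 and 600.2. Aldoc (gene ID 11676, chr11:78323073-78327781), the isozyme best known from brain, was much scarcer, with 2.67, 1.93 and 1.90 CPM in naive R2 and 8.20, 9.32 and 7.96 in CAWS R2, a log2 fold change of 1.97 ± 0.32 (SE), edgeR adjusted p = 0.000217. The range of R3 took in that of CAWS R2 already without challenge, at 13.8, 11.5 and 6.82 in naive and 14.4, 11.2 and 7.47 in CAWS libraries (0.017 ± 0.25, adjusted p = 0.974). Replicate 1 was the highest of R3 under both treatments and replicate 3 the lowest. In R1 it measured 1.73, 2.05 and 2.20 (naive) and 2.31, 4.18 and 5.38 (CAWS), which did not overlap and did not pass (1.00 ± 0.37, adjusted p = 0.1), and in the monocytes 1.80, 2.32 and 2.35.

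**Figure D3:**
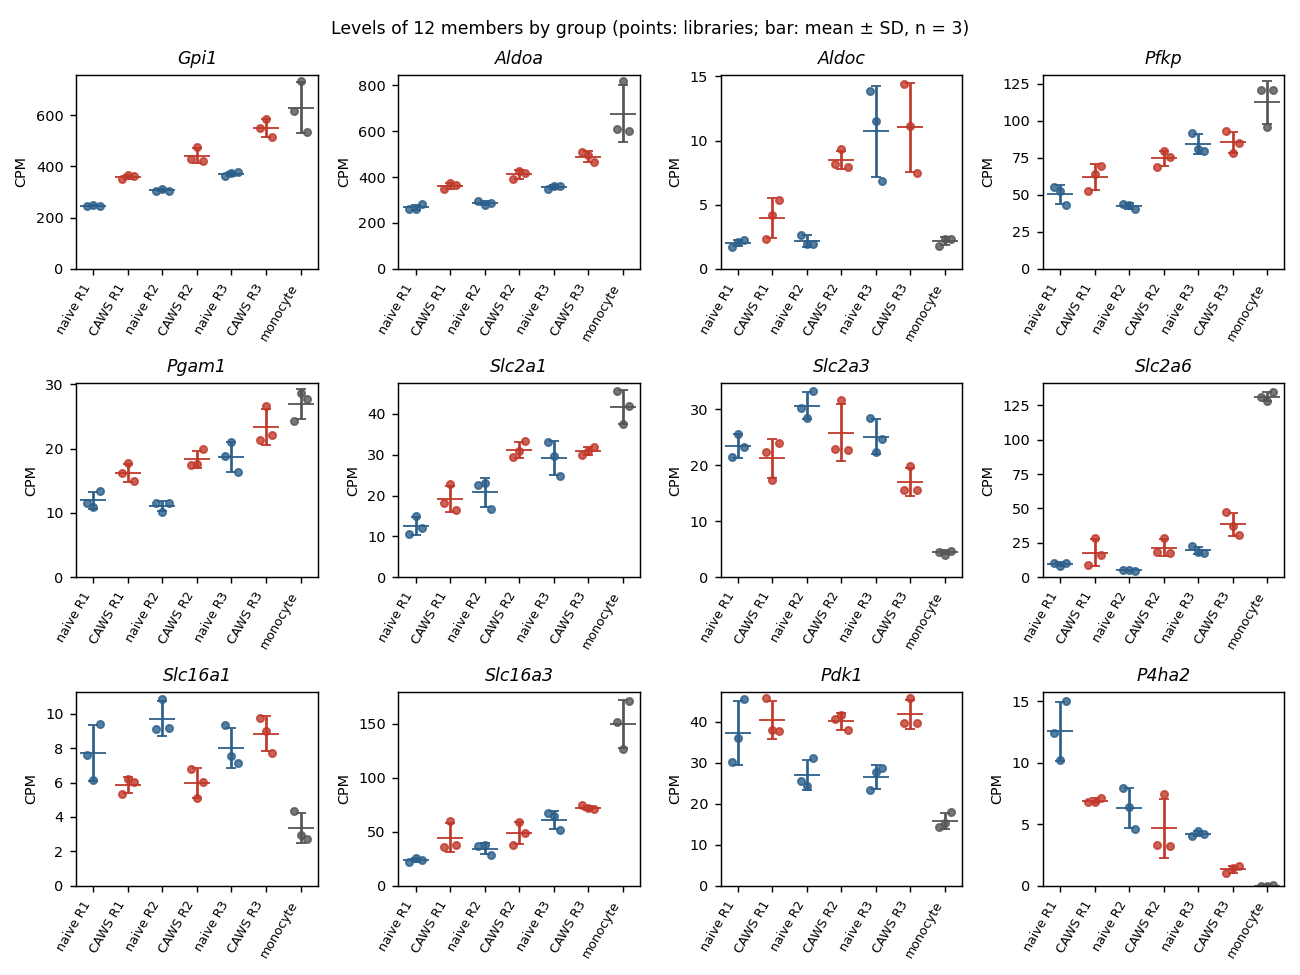
CPM (y axis, from 0) of 12 members in the 7 groups (x axis), with points for libraries and bars for the mean ± SD of 3. Naive groups are blue, CAWS groups red and monocytes grey. Aldoc and Slc2a6 in CAWS R2 lie well above naive R2, and P4ha2 lies at 10.2 to 15.02 CPM in naive R1 and at 1.02 to 1.60 CPM in CAWS R3.

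The log2 differences of Tpi1 lay near the threshold in each population, at 0.32 ± 0.10 (SE), edgeR adjusted p = 0.049988 in R1, 0.31 ± 0.10 with 0.0573 in R2 and 0.32 ± 0.10 with 0.0347 in R3. The call in R1 was lost without each of the 6 libraries in turn (adjusted p 0.054 to 0.218) and with RLE scaling (0.0706), no filter (0.114) or a stricter filter (0.0575) and that in R3 without each of the 6 libraries in turn (adjusted p 0.0507 to 0.124).

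Gapdh (gene ID 14433, chr6:125161852-125166467), often used as a reference gene, had few counts here. It measured 1.53, 1.37 and 1.40 CPM in naive R1 and 1.52, 1.80 and 1.07 in CAWS R1, 1.45, 1.25 and 1.19 (naive) and 1.98, 1.25 and 2.40 (CAWS) in R2, 1.22, 3.38 and 1.72 (naive) and 3.20, 3.14 and 3.00 (CAWS) in R3, and 3.02, 2.59 and 2.41 in the monocytes. The naive and CAWS libraries overlapped in each population, and the log2 differences were 0.0087 ± 0.38, 0.51 ± 0.36 and 0.55 ± 0.32 (edgeR adjusted p = 0.995, 0.425 and 0.266). In R1 the sign of this small difference turned under several alternatives. Pgk1, the phosphoglycerate kinase, ran from 1.72 to 4.70 CPM over the macrophage libraries and passed in 0 populations.

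In the lower part of the pathway, Pgam1, Eno1 and Pkm rose in R2, and Pkm also in R1. Pgam1 (gene ID 18648, chr19:41911871-41918665), the phosphoglycerate mutase, measured 11.6, 10.1 and 11.6 CPM in naive R2 and 17.5, 17.7 and 19.9 in CAWS R2, a log2 fold change of 0.72 ± 0.14 (SE), edgeR adjusted p = 0.00168. In R1 it stood at 11.5, 10.99 and 13.4 (naive) and 16.1, 17.7 and 14.9 (CAWS) (0.44 ± 0.14, adjusted p = 0.057) and in R3 at 18.9, 21 and 16.3 (naive) and 21.3, 26.6 and 22.2 (CAWS) (0.31 ± 0.14, adjusted p = 0.13), with 24.3, 28.7 and 27.7 in the monocytes. The CAWS libraries lay above the naive ones in each population. Eno1, the enolase, rose in R2 on the log2 scale by 0.43 ± 0.13 (SE), edgeR adjusted p = 0.0316, although its libraries overlapped, and that call was lost without naive R2 replicate 2 (adjusted p 0.134), naive R2 replicate 3 (0.145), CAWS R2 replicate 2 (0.285) or CAWS R2 replicate 3 (0.065) and with no filter (0.0602). On the same scale Pkm rose in R1 by 0.27 ± 0.083 (SE), edgeR adjusted p = 0.0414, and in R2 by 0.45 ± 0.083 (SE), edgeR adjusted p = 0.000954. Its call in R1 was lost without each of the 6 libraries in turn (adjusted p 0.0793 to 0.205) and with RLE scaling (0.0533) or no filter (0.12). Ldha and Ldhb, the subunits that convert pyruvate to lactate and back, passed in 0 populations, with log2 differences of Ldha at 0.12, 0.27 and 0.24 in R1, R2 and R3.

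Of the transporters, Slc2a1 and Slc2a6 rose, Slc2a3 fell in R3, and of the lactate carriers Slc16a3 rose in R1 and Slc16a1 fell in R2. Slc2a1 (gene ID 20525, chr4:119108745-119137330), the widely expressed glucose transporter GLUT1, measured 10.5, 15.02 and 12.1 CPM in naive R1 and 18.1, 22.7 and 16.4 in CAWS R1 (0.61 ± 0.17 (SE), edgeR adjusted p = 0.0256). In R2 it measured 22.6, 23.1 and 16.7 (naive) and 29.4, 30.8 and 33.4 (CAWS) (0.59 ± 0.15 (SE), edgeR adjusted p = 0.0167). In R3 the naive values of 33.01, 29.7 and 24.8 and the CAWS values of 29.9, 30.9 and 31.8 overlapped (0.082 ± 0.15, adjusted p = 0.767), and the monocytes were at 45.6, 37.4 and 41.9. The challenged R2 libraries overlapped the range of naive R3. The call in R1 was lost without naive R1 replicate 1 (adjusted p 0.133), naive R1 replicate 3 (0.0858) or CAWS R1 replicate 2 (0.156) and with only the groups compared (0.0546), and that in R2 without naive R2 replicate 3 (adjusted p 0.111), CAWS R2 replicate 2 (0.0536) or CAWS R2 replicate 3 (0.065).

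Slc2a6 (gene ID 227659, chr2:27021363-27028000), the transporter GLUT6 found in leukocytes, showed the largest rise in R2 among the members that passed the test. It measured 5.11, 5.57 and 4.76 CPM in naive R2 and 18.3, 28.6 and 17.5 in CAWS R2, a log2 fold change of 2.07 ± 0.31 (SE), edgeR adjusted p = 0.000165. In R3 it rose from 22.5, 18.7 and 17.7 to 47.6, 37.1 and 30.5 (0.96 ± 0.27 (SE), edgeR adjusted p = 0.0198), without overlap in either population. In R1 it stood at 10.3, 7.82 and 10.02 in naive and 8.99, 28.4 and 16.4 in CAWS libraries (0.92 ± 0.30, adjusted p = 0.0601), with CAWS R1 replicate 1 at the naive level and replicate 2 highest. All macrophage libraries stayed below the monocytes, at 131, 128 and 135 CPM. The call in R3 was lost without naive R3 replicate 2 (adjusted p 0.0631), naive R3 replicate 3 (0.0693), CAWS R3 replicate 1 (0.0873) or CAWS R3 replicate 2 (0.056).

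Slc2a3 (gene ID 20527, chr6:122727809-122802363), the high-affinity transporter GLUT3, went the other way in R3, with 28.5, 22.3 and 24.6 CPM in naive and 15.6, 19.9 and 15.6 in CAWS libraries (-0.56 ± 0.16 (SE), edgeR adjusted p = 0.0233). In R1 its values were 21.5, 25.6 and 23.3 (naive) and 22.4, 17.3 and 24.02 (CAWS), and in R2 30.3, 28.5 and 33.2 (naive) and 22.9, 31.7 and 22.8 (CAWS), overlapping in both (adjusted p = 0.665 and 0.345, edgeR). The monocytes held only 4.57, 4.03 and 4.76 CPM. The fall in R3 was lost as a call without naive R3 replicate 1 (adjusted p 0.105), CAWS R3 replicate 1 (0.148) or CAWS R3 replicate 3 (0.0797).

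Slc16a3 (gene ID 80879, chr11:120948484-120959000), the lactate exporter MCT4 of glycolytic cells, rose in R1 from 21.9, 25.9 and 24.2 CPM to 35.9, 60.4 and 37.6 (0.89 ± 0.19 (SE), edgeR adjusted p = 0.00481). CAWS R1 replicate 2, the highest, is also the library of R1 with the most Slc2a6. In R2 it measured 36.6, 37.8 and 28.3 (naive) and 38.2, 58.6 and 48.8 (CAWS) (0.51 ± 0.18, adjusted p = 0.0821), in R3 66.9, 64.8 and 51.5 (naive) and 74.5, 71.5 and 70.7 (CAWS) (0.24 ± 0.18, adjusted p = 0.394), and in the monocytes 151, 126 and 171. Slc16a1 (gene ID 20501, chr3:104638664-104658462), the carrier MCT1 that moves lactate in either direction, fell in R2 from 9.08, 10.9 and 9.17 to 6.81, 5.10 and 6.05 (-0.70 ± 0.19 (SE), edgeR adjusted p = 0.0243), and that call was lost without naive R2 replicate 2 (adjusted p 0.0985), CAWS R2 replicate 2 (0.133) or CAWS R2 replicate 3 (0.0612). In R1 its values were 7.62, 6.15 and 9.42 (naive) and 5.31, 6.21 and 6.04 (CAWS), in R3 9.32, 7.55 and 7.15 (naive) and 9.77, 8.98 and 7.74 (CAWS), and in the monocytes 4.37, 2.94 and 2.75, with overlap between naive and CAWS libraries in R1 and R3.

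Among the regulators of flux, Pdk1 rose in R2 and R3 while the Pfkfb enzymes fell in R3. Pdk1 (gene ID 228026, chr2:71873215-71903858) inhibits the pyruvate dehydrogenase complex, the gate from glycolysis into the mitochondrial cycle. It measured 25.6, 24.3 and 31.1 CPM in naive R2 and 40.7, 41.7 and 37.9 in CAWS R2 (0.57 ± 0.15 (SE), edgeR adjusted p = 0.0147), and 23.3, 27.7 and 28.8 (naive) and 39.8, 45.8 and 39.9 (CAWS) in R3 (0.65 ± 0.15 (SE), edgeR adjusted p = 0.00469). No naive library reached a CAWS library in R2 or R3. Naive R1 already held 30.2, 36.1 and 45.6 and CAWS R1 45.8, 37.96 and 37.7 (adjusted p = 0.675, edgeR), and the monocytes 14.3, 15.4 and 17.99. The call in R2 was lost without naive R2 replicate 1 (adjusted p 0.0707), naive R2 replicate 2 (0.0877) or CAWS R2 replicate 2 (0.0734). Pdha1, the catalytic subunit of the complex that Pdk1 inhibits, had log2 differences of 0.14, 0.0042 and 0.18 and passed in 0 populations. Pfkfb3 and Pfkfb4 make and remove fructose 2,6-bisphosphate, the activator of phosphofructokinase. In R3, Pfkfb3 fell from 113, 94.5 and 109.5 to 71.9, 73.9 and 81.6 CPM (-0.48 ± 0.13 (SE), edgeR adjusted p = 0.0129), and Pfkfb4 from 215, 237 and 183 to 149, 166 and 166 (-0.40 ± 0.11 (SE), edgeR adjusted p = 0.0168). These calls were lost without naive R3 replicate 1 (adjusted p 0.0581), CAWS R3 replicate 1 (0.0897) or CAWS R3 replicate 2 (0.0617) for Pfkfb3, and without naive R3 replicate 1 (adjusted p 0.0512), naive R3 replicate 2 (0.0949) or CAWS R3 replicate 1 (0.139) for Pfkfb4.

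The 8 members of the hypoxia set did not rise past the test in any population. Hif1a (gene ID 15251, chr12:73901324-73947554) measured 111, 132 and 107 CPM in naive R1 and 117, 119.8 and 119.5 in CAWS R1, 128, 125 and 119.7 (naive) and 115, 126 and 129.6 (CAWS) in R2, 148, 124 and 126 (naive) and 139.5, 155 and 155 (CAWS) in R3, and 167, 117 and 223 in the monocytes. The naive and CAWS libraries overlapped in each population, and the log2 differences were 0.023 ± 0.15, -0.0089 ± 0.15 and 0.17 ± 0.15 (edgeR adjusted p = 0.956, 0.982 and 0.475). The sign in R1 and R2 turned when single libraries were left out. Egln1, the main oxygen sensor acting on Hif1a, gave -0.13, -0.12 and -0.11, Bnip3, which marks mitochondria for removal, gave 0.23, 0.035 and 0.44, and Ero1l, the oxidase that serves disulfide formation in the endoplasmic reticulum, gave 0.09, -0.15 and 0.15 in R1, R2 and R3. Egln3, a second oxygen sensor that Hif1a itself induces, ran from 0.228 to 2.52 CPM over all libraries. Ak4, a mitochondrial adenylate kinase, reached at most 1.25 CPM and had no count in 3 of 3 naive R1 and 3 of 3 monocyte libraries, where 3 counts over the group would be 0.0585 and 0.0624 CPM.

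P4ha2 (gene ID 18452, chr11:54100924-54131668), a catalytic subunit of the enzyme that hydroxylates prolines of collagen, had the widest range of group means among the members with counts in every group. It measured 12.4, 10.2 and 15.02 CPM in naive R1 and 6.79, 6.79 and 7.16 in CAWS R1, a log2 fold change of -0.85 ± 0.24 (SE), edgeR adjusted p = 0.0296. In R3 it fell from 4.05, 4.46 and 4.17 to 1.02, 1.42 and 1.60 (-1.63 ± 0.41 (SE), edgeR adjusted p = 0.00936), with no overlap in either. In R2 the values of 7.91, 6.37 and 4.63 (naive) and 3.31, 7.43 and 3.23 (CAWS) overlapped, CAWS R2 replicate 2 standing above the other two (-0.41 ± 0.28, adjusted p = 0.401). The call in R1 was lost without naive R1 replicate 1 (adjusted p 0.064), naive R1 replicate 3 (0.117), CAWS R1 replicate 1 (0.0743), CAWS R1 replicate 2 (0.0802) or CAWS R1 replicate 3 (0.0728), and that in R3 without CAWS R3 replicate 1 (adjusted p 0.0598). The sum of the 4 resident macrophage markers given above was also highest in naive R1 and lowest in CAWS R3 among the macrophage groups, and its part in the level of P4ha2 was not tested. The 6 fibroblast markers summed to 14.1 to 23.7 CPM in naive R1 and 18.1 to 22.7 in CAWS R1, and to 14.2 to 211 in naive R3 and 18.5 to 31.8 in CAWS R3. Of these 6, Col1a1 (-3.37 ± 0.95, adjusted p = 0.0226) and Col1a2 (-2.36 ± 0.79, 0.0489) also fell in R3, and their part in the fall of P4ha2 was not tested. P4ha1, a widely expressed alternative to P4ha2 as catalytic subunit, gave -0.080, -0.19 and -0.20 and passed in 0 populations.

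Whether the response to CAWS differed between populations was tested as the difference of the fold changes. Between R3 and R2, 2 of 34 members (5.88%) passed, against 2.33% (0.0979% higher, 2.23% lower) of all genes, and both were lower in R3. For Aldoc the response in R3 minus that in R2 was -1.95 ± 0.41 (SE), edgeR adjusted p = 0.00806, and for Pfkp it was -0.79 ± 0.18 (SE), edgeR adjusted p = 0.0132. The Pfkp call was lost without CAWS R2 replicate 2 (adjusted p 0.0696) or CAWS R3 replicate 2 (0.0596). Between R3 and R1, 0 members passed where 2.26% (0.0979% higher, 2.16% lower) of all genes did, and 1 member, Pfkfb4, passed with the pool as a block (-0.55 ± 0.16, adjusted p = 0.067 without and 0.0248 with the block). Before adjustment, 8 members had an edgeR p under 0.05, and DESeq2 and limma voom each called 1 member. Between R2 and R1, 0 passed where 0.0527% (0.0377% higher, 0.0151% lower) of all genes did, 4 members had an edgeR p under 0.05 before adjustment, and DESeq2 also called 0. Slc2a6 did not pass and gave -1.11 ± 0.41 (SE), edgeR adjusted p = 0.229 for R3 minus R2.

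Within families of isozymes and carriers, the shares of counts per length described which member was dominant. Among the hexokinases Hk3 held 57.8% ± 3.40 (SD, n = 3) in naive R1, 49.8% ± 1.40 for naive R2 and 39.3% ± 4.37 for naive R3, and 51.03% ± 3.16, 47.2% ± 1.39 and 43.9% ± 2.65 in the CAWS groups. Pfkp held 33.8% ± 1.44 of the phosphofructokinases in naive R2 and 45.6% ± 0.423 in CAWS R2, near the 46.7% ± 1.41 of naive R3, while in the monocytes it was 64.7% ± 1.99. These ranges left no overlap between naive and CAWS R2.

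The 3 glucose transporters differed in their shares as well. Slc2a3 held 42.7% ± 5.67 in naive R2, 22.6% ± 1.30 in CAWS R2, 12.6% ± 2.10 in CAWS R3 and 1.43% ± 0.0750 in the monocytes. Slc2a6 held 13.2% ± 0.615, 34.6% ± 5.02, 52% ± 6.23 and 78.05% ± 1.48 in the same groups. Of the lactate carriers, Slc16a1 held 15.8% ± 3.27 in naive R1 and 7.38% ± 1.53 in CAWS R1, 14.3% ± 1.61 and 6.99% ± 2.31 in R2, 7.11% ± 0.651 and 6.63% ± 0.571 in R3, and 1.30% ± 0.367 in the monocytes. Ldhb held 10.4% ± 1.52 of the lactate dehydrogenases in the monocytes and at most 2.32% on average in a macrophage group. Aldoc never exceeded 3.13% of the aldolases on average.

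**Figure D4:**
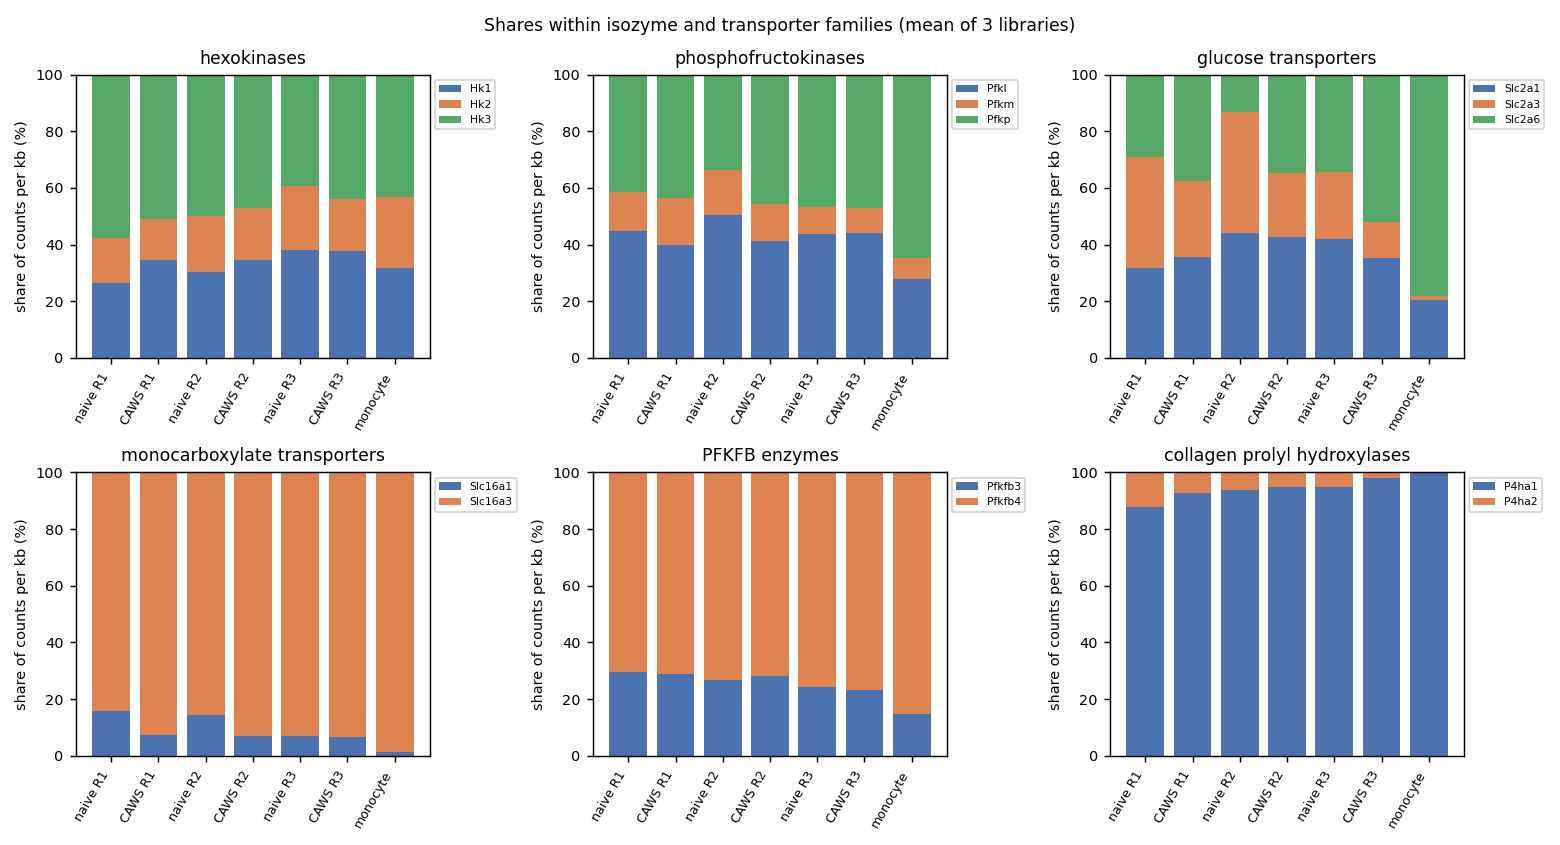
Stacked bars give the mean share (y axis, percent of counts per kilobase, 3 libraries) of each member within 6 families, for the 7 groups (x axis). Slc2a6 takes 13.2% of the glucose transporters in naive R2, 34.6% in CAWS R2 and 78.0% in monocytes.

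Without challenge, the populations were compared to see how the sorted subsets differ at rest. In naive R3 against naive R1, 14 members were higher and 3 lower (50% in either direction), against 23.2% (12.5% higher, 10.7% lower) of all genes. The largest differences, by edgeR, were those of Aldoc (2.45 ± 0.32, 6.52e-06), P4ha2 (-1.56 ± 0.26, 0.000144), Slc16a3 (1.35 ± 0.19, 1.28e-05), Slc2a1 (1.23 ± 0.17, 7.86e-06), Slc2a6 (1.06 ± 0.30, 0.0124), Pfkp (0.74 ± 0.13, 0.000129), Hk3 (-0.74 ± 0.13, 0.000219) and Pgam1 (0.65 ± 0.14, 0.00172). Of the 17 enzymes, 10 were higher and 1, Hk3, was lower. Slc2a6 lost its call without naive R1 replicate 2 (adjusted p 0.0612) or naive R3 replicate 1 (0.0536) and with limma voom (0.0546). With the pool as a block, Pdha1 passed as higher (adjusted p = 0.0538 without and 0.0488 with the block).

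In naive R3 against naive R2, 12 members were higher and 0 lower (35.3%), against 12.4% (6.63% higher, 5.77% lower) of all genes. Both comparisons share the naive R3 libraries and are not independent. The largest differences, by edgeR, were those of Aldoc (2.31 ± 0.31, 1.68e-05), Slc2a6 (1.94 ± 0.31, 0.00024), Pfkp (0.99 ± 0.13, 9.43e-06), Slc16a3 (0.84 ± 0.18, 0.00334), Pgam1 (0.76 ± 0.14, 0.000806), Eno1 (0.69 ± 0.12, 0.000528), Pkm (0.56 ± 0.083, 6.05e-05) and Ldha (0.56 ± 0.12, 0.00404). These calls held with each single library left out and under the other alternatives. The call of Aldoa was lost without each of the 6 libraries in turn (adjusted p 0.0773 to 0.174) and with RLE scaling (0.0587), no filter (0.116) or a stricter filter (0.0586), and with the pool as a block (0.0588).

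Fewer members differed between the Ccr2-negative populations. In naive R2 against naive R1, 3 members were higher and 2 lower (14.7%), against 7.13% (3.88% higher, 3.25% lower) of all genes. Slc2a1 (0.73 ± 0.17 (SE), edgeR adjusted p = 0.00676), Pfkfb4 (0.65 ± 0.11, adjusted p = 0.00045) and Pfkfb3 (0.44 ± 0.12, 0.0293) were higher, and P4ha2 (-0.99 ± 0.24, 0.0122) and Hk3 (-0.52 ± 0.13, 0.0147) lower. Pfkfb4 measured 135, 158 and 127 CPM in naive R1 and 222, 234 and 202 in naive R2, without overlap, and its call held without any of the 6 libraries. The other calls were lost without naive R1 replicate 1 (adjusted p 0.0558) for Slc2a1, without naive R1 replicate 1 (adjusted p 0.0803), naive R1 replicate 2 (0.0836), naive R1 replicate 3 (0.0698), naive R2 replicate 1 (0.148) or naive R2 replicate 3 (0.121) for Pfkfb3, without naive R1 replicate 3 (adjusted p 0.0766) or naive R2 replicate 3 (0.0842) for P4ha2 and without naive R1 replicate 1 (adjusted p 0.0563), naive R1 replicate 3 (0.0608), naive R2 replicate 2 (0.0797) or naive R2 replicate 3 (0.0668) for Hk3. With the pool as a block, Pdk1 passed as lower (-0.45, adjusted p = 0.0296), and the number of members was 3 without naive R1 replicate 1 or naive R2 replicate 3 and 2 without naive R1 replicate 3.

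The challenged populations were compared in the same way, and the comparisons with CAWS R3 share its libraries. In CAWS R3 against CAWS R1, 17 members were higher and 3 lower (58.8%), against 29.4% (13.1% higher, 16.3% lower) of all genes, and the count became 13 without CAWS R3 replicate 2. With the pool as a block, P4ha1 passed as lower (adjusted p = 0.0607 without and 0.0104 with the block) and Slc16a1 no longer passed as higher (0.0331 and 0.0501). The largest differences, by edgeR, were those of P4ha2 (-2.34 ± 0.37, 5.03e-05), Aldoc (1.46 ± 0.29, 0.000473), Slc2a6 (1.11 ± 0.27, 0.00364), Gapdh (1.10 ± 0.34, 0.0181), Ldha (0.73 ± 0.12, 9.75e-05), Slc16a3 (0.70 ± 0.18, 0.00538), Slc2a1 (0.70 ± 0.16, 0.00185) and Gpi1 (0.62 ± 0.10, 3.5e-05). Slc2a6 lost its call with only the groups compared (adjusted p 0.0799). Gapdh lost its call without CAWS R1 replicate 3 (adjusted p 0.0822) or CAWS R3 replicate 2 (0.0514).

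In CAWS R3 against CAWS R2, 8 members were higher and 3 lower (32.4%), against 15.3% (5.51% higher, 9.76% lower) of all genes, and the count became 7 without CAWS R2 replicate 1 or CAWS R3 replicate 1. There the largest differences, by edgeR, were those of P4ha2 (-1.80 ± 0.40, 0.00311), Slc2a6 (0.83 ± 0.26, 0.0389), Slc2a3 (-0.60 ± 0.16, 0.0131), Slc16a3 (0.57 ± 0.18, 0.0355), Pfkfb3 (-0.56 ± 0.13, 0.00324), Eno1 (0.53 ± 0.12, 0.00493), Ldha (0.52 ± 0.12, 0.0054) and Tpi1 (0.42 ± 0.10, 0.00594), while Aldoc and Pfkp did not pass (0.36 ± 0.26 with 0.407, and 0.20 ± 0.12 with 0.327). Slc2a6 lost its call without CAWS R2 replicate 1 (adjusted p 0.134), CAWS R2 replicate 3 (0.165), CAWS R3 replicate 1 (0.153) or CAWS R3 replicate 2 (0.0896) and with no filter (0.0658). Slc2a3 lost its call without CAWS R2 replicate 2 (adjusted p 0.187), CAWS R3 replicate 1 (0.112) or CAWS R3 replicate 3 (0.0577). Slc16a3 lost its call without CAWS R2 replicate 1 (adjusted p 0.172), CAWS R2 replicate 3 (0.0978), CAWS R3 replicate 1 (0.0673), CAWS R3 replicate 2 (0.0878) or CAWS R3 replicate 3 (0.0614). In CAWS R2 against CAWS R1, Aldoc (1.10 ± 0.29 (SE), edgeR adjusted p = 0.0326) and Slc2a1 (0.71 ± 0.16, 0.0102) were higher, 2 of 34 (5.88%) against 3.77% (2.46% higher, 1.31% lower) of all genes. Aldoc lost the call without CAWS R1 replicate 1 (adjusted p 0.202), CAWS R1 replicate 2 (0.0684), CAWS R2 replicate 1 (0.074), CAWS R2 replicate 2 (0.166) or CAWS R2 replicate 3 (0.0657), and Slc2a1 without CAWS R1 replicate 1 (adjusted p 0.0572) or CAWS R1 replicate 3 (0.0764).

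Against the splenic monocytes most members differed, as most genes did. Naive R1 had 7 members higher and 20 lower (79.4%, against 63.3% (32.5% higher, 30.8% lower) of all genes), naive R2 10 and 21 (91.2%, against 63.6% (33.1% higher, 30.5% lower)), naive R3 11 and 17 (82.4%, against 58.9% (31.9% higher, 27.1% lower)) and CAWS R3 10 and 12 (64.7%, against 47.6% (24.8% higher, 22.8% lower)). Monocyte replicate 2 stood apart from the other two, with a limma voom quality weight of 0.1507 against 1.903 and 0.9816, and without it 28, 30, 26 and 25 members passed. The same 3 monocyte libraries stand in all 4 comparisons, and organ and cell type cannot be told apart. Of the 34 members, 17 had their highest and 10 their lowest group mean in the monocytes.

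Ldhb measured 2.24 ± 0.611 CPM (SD, n = 3) in naive R1, 4.68 ± 0.562 in CAWS R3 and 25.3 ± 7.23 in the monocytes, a log2 fold change of -3.52 ± 0.26 (SE), edgeR adjusted p = 9.81e-11 for naive R1 and -2.42 ± 0.24 (SE), edgeR adjusted p = 2.35e-08 for CAWS R3. Pkm measured 319 ± 5.01, 483 ± 16.7 and 1158 ± 53.5 CPM in these groups (-1.86 ± 0.085 and -1.26 ± 0.084, adjusted p = 1.81e-14 and 2.91e-11). Slc2a6 was -3.80, -4.68, -2.74 and -1.78 on the log2 scale in naive R1, naive R2, naive R3 and CAWS R3, and Slc16a3 -2.64, -2.13, -1.29 and -1.05. Both were lower in every macrophage group tested.

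A smaller set was higher in the macrophages. Slc2a3 exceeded the monocytes by 2.39, 2.78, 2.49 and 1.93 on the log2 scale in the same 4 groups, and Slc16a1 by 1.21, 1.53, 1.26 and 1.40. Aldoc was higher in naive R3 (2.32 ± 0.32 (SE), edgeR adjusted p = 2.57e-06) and CAWS R3 (2.33 ± 0.33 (SE), edgeR adjusted p = 4.14e-06). P4ha2 had 1 count over the 3 monocyte libraries, against 640 in naive R1 and 56 in CAWS R3. The ratio of summed counts, each over the summed library sizes, was 599.6 for naive R1 (95% interval 107 to 23720) and 65.4 for CAWS R3 (11.3 to 2629), by an exact interval that covers counting error only. Ak4 had 0 counts in the monocytes and 24 in naive R3, at least 7.71-fold higher with 3 counts over the group as the floor, although 1 naive R3 library also had 0. That call was lost without naive R3 replicate 2 (adjusted p 0.207), monocyte replicate 1 (0.0742), monocyte replicate 2 (0.0632) or monocyte replicate 3 (0.0805) and with limma voom (0.153).

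**Figure D5:**
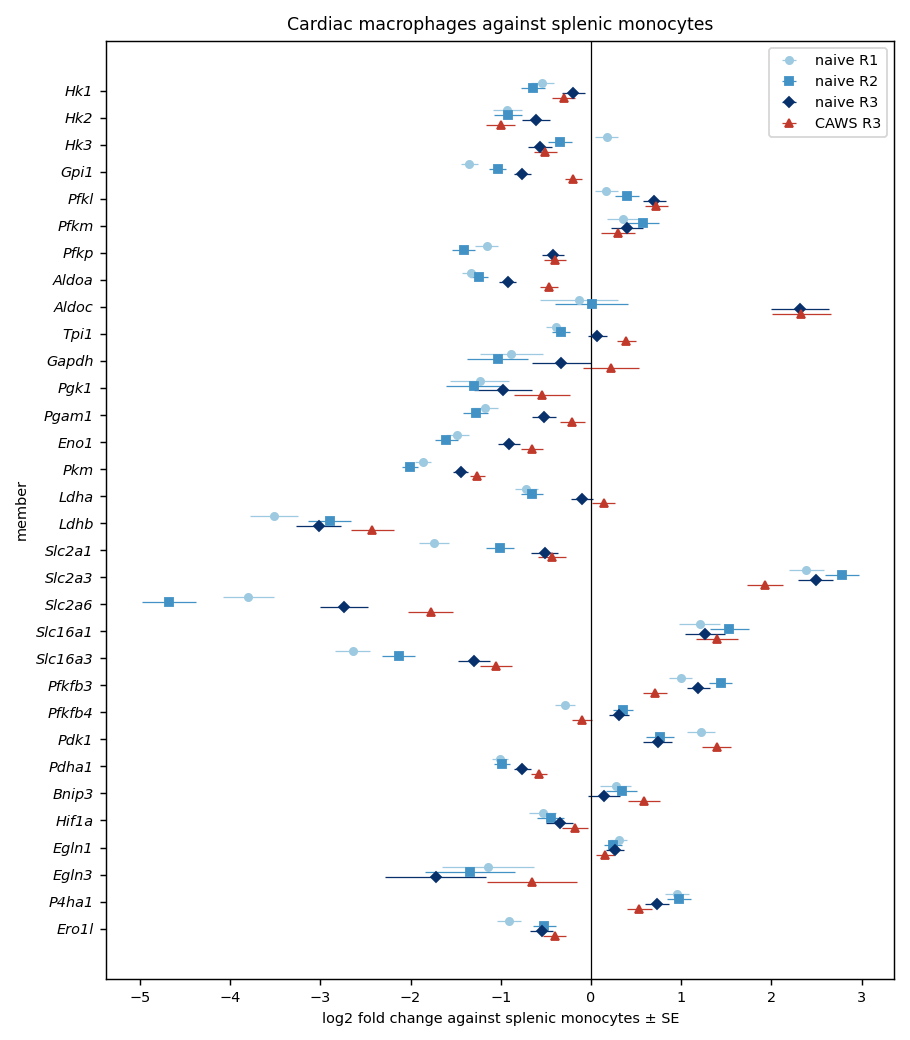
Log2 fold change against splenic monocytes with its standard error (x axis) for 32 members (y axis) in naive R1, naive R2, naive R3 and CAWS R3, 3 libraries each, all against the same 3 monocyte libraries. Ak4 and P4ha2 are not drawn because they had 0 and 1 counts in the monocytes. Slc2a6, Ldhb and Slc16a3 lie far to the left and Slc2a3 to the right in the 4 groups.

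Other genes of the pathways around the members were counted in the same way, and their shares are to be read against the 8.94%, 10.3% and 15% of all genes that passed in R1, R2 and R3. Of 15 other glycolysis genes tested, 0 rose and 2 fell in R1, 1 rose and 0 fell in R2, and 1 rose and 1 fell in R3. Their median log2 differences were -0.032, -0.034 and -0.078 in R1, R2 and R3. Adpgk, an ADP-dependent glucokinase, fell in R1 (log2 fold change -0.50 ± 0.12, edgeR adjusted p = 0.00887). Of 32 other hypoxia targets and regulators, 3 rose and 1 fell in R1, 2 rose and 1 fell in R2, and 4 rose and 2 fell in R3. Their medians were 0.10, 0.21 and -0.026. Ndrg1, a stress gene that hypoxia induces, rose in R1 (1.62 ± 0.20, adjusted p = 2.51e-05), R2 (2.59 ± 0.21, 2.84e-08) and R3 (1.49 ± 0.15, 4.36e-07). Anxa2, a membrane-binding annexin, rose in R1 (0.60 ± 0.12, 0.0022), R2 (1.53 ± 0.12, 1.28e-08) and R3 (0.54 ± 0.12, 0.00288). Gbe1, of the same list, fell in R1 (-0.60 ± 0.17, 0.0329), R2 (-0.66 ± 0.17, 0.0165) and R3 (-0.68 ± 0.18, 0.0161). The Gbe1 call was lost without each of the 6 libraries in turn in R1, and without any of 3 libraries in R2 and in R3.

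Of 33 genes of the pyruvate dehydrogenase complex and the citric acid cycle, 3 rose and 1 fell in R1, 4 rose and 0 fell in R2, and 3 rose and 3 fell in R3. Their medians were 0.011, 0.13 and 0.038. Irg1 (Acod1), which diverts the cycle to itaconate, rose from means of 0.116 to 3.90 CPM in R1, 0.0301 to 7.24 in R2 and 0.176 to 3.41 in R3 (edgeR adjusted p = 0.000149, 1.68e-07 and 0.000323). Idh3b, a subunit of isocitrate dehydrogenase, rose by 0.61 ± 0.13, 0.59 ± 0.13 and 0.69 ± 0.13 (adjusted p = 0.00393, 0.00391 and 0.000704). Idh3a, another subunit, fell in R1 (-0.55 ± 0.14, adjusted p = 0.0168) and did not pass in R2 (-0.21 ± 0.14, 0.378). The Idh3a call in R1 was lost without naive R1 replicate 3 or CAWS R1 replicate 3. Of the relatives of Pdk1, Pdk2 rose in R1 (0.56 ± 0.13, adjusted p = 0.00811) and R2 (0.57 ± 0.13, 0.00543), and Pdk4 fell in R3 (-2.53 ± 0.60, adjusted p = 0.00641). The Pdk2 call in R1 was lost without naive R1 replicate 2 (adjusted p 0.0608). Of 11 genes of the pentose phosphate pathway, 1 rose in R1, 2 rose in R2, and 2 rose and 1 fell in R3, with Tkt, the transketolase, among those that rose in each, and their medians were 0.04, 0.13 and 0.04. The log2 fold changes of Tkt were 0.42 ± 0.094, 0.32 ± 0.093 and 0.35 ± 0.093 (edgeR adjusted p = 0.00667, 0.0318 and 0.0143). The Tkt calls were lost without naive R1 replicate 3 (adjusted p 0.056) or CAWS R1 replicate 2 (0.0663) in R1, without naive R2 replicate 2 (adjusted p 0.131), naive R2 replicate 3 (0.125), CAWS R2 replicate 1 (0.0591), CAWS R2 replicate 2 (0.16) or CAWS R2 replicate 3 (0.0625) and with no filter (0.0954) in R2 and without naive R3 replicate 3 (adjusted p 0.0842) in R3.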

How the data were processed

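The 34 members and the other gene lists were chosen with earlier results of these data known. The deposited values are raw counts per gene, made with featureCounts on build mm10, per the submitters' processing notes. No source used here names the aligner, its version or the use of strand. Libraries were prepared from total RNA of sorted cells with an Illumina TruSeq RNA kit, per the labels' protocols. Each library's own file was identical to its column of the table in 21 of 21 cases. Gene symbols came from RefSeq for 25275 of 27179 IDs.

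Genes passed edgeR's filterByExpr (minimum count 10, minimum total 15), which kept 13275. All 7 groups were fitted together with TMM scaling and edgeR's quasi-likelihood test (edgeR 4.0.16, R 4.3.3, 14 residual degrees of freedom), and p-values were Benjamini-Hochberg adjusted over all tested genes with a threshold of 0.05. The fit was tested on simulated data. CPM per kilobase used the exonic length. Intervals at 95% and the floor of 3 counts cover counting error only.

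The design states that R1, R2 and R3 came from 3 independent pools per treatment. Deviations from the group means over 7064 genes whose log2 CPM averaged 4 or more correlated between same-numbered libraries of a treatment by 0.1506 to 0.6378 (18 pairs, all above 0.1 in 6 of 6 group pairs). With the design, the replicate number was taken to mark the pool there. Between treatments the range was -0.2959 to 0.2631 (27 pairs) and with monocytes -0.1821 to 0.7034 (18 pairs), and those numbers were not taken to pair. The value of 0.7034 was between CAWS R3 and the naive monocytes, which came from different mice. Since the ranges overlap, the correlations alone cannot show which libraries share a pool. Alternatives were DESeq2 1.42.0, limma 3.58.1 voom with quality weights, RLE scaling, no filter, a minimum count of 50, only the groups compared, the replicate block, shares without division by length, and each library left out. Every member was counted in each comparison. Values in every library are given for members that passed a CAWS comparison with a log2 fold change of at least 0.5, members that passed a difference between responses, Hif1a and Gapdh. Up to 8 members are named per population or monocyte comparison, and up to 4 genes per other list in each CAWS comparison. Listed genes with low counts were not tested (15 of 25 other glycolysis genes and 32 of 39 other hypoxia genes were), and 2 further genes are not reported here.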

Additional observations from a re-analysis of the deposited data

Results flagged for a closer look

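For 2 members the response to CAWS differed between R3 and R2 by the test of the difference itself. For Aldoc the difference of log2 fold changes, R3 minus R2, was -1.948 (edgeR adjusted p = 0.00806), with the libraries of naive and CAWS R2 apart and those of R3 overlapping. For Pfkp it was -0.7948 (edgeR adjusted p = 0.0132), and this call was lost without CAWS R2 replicate 2 (adjusted p 0.0696) or CAWS R3 replicate 2 (0.0596).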

How the results depend on the processing

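Over 16 comparisons, 204 calls of members were made, of which 140 were kept under each alternative run and 0 reversed, and over all alternatives 2430 of 2660 were kept. DESeq2 kept 204 of 204. The number of members past the test in R1 with CAWS was 11 with DESeq2. For the response in R3 minus R1 it was 1 with DESeq2, 1 with limma voom and 1 with the replicate block. For naive R2 against naive R1 it was 9 with DESeq2 and 8 with only the groups compared. Leaving out 1 library at a time gave 2 to 7 members in R1, 7 to 12 in R2 and 3 to 7 in R3 with CAWS. Over all genes it gave 673 to 893 (1187 with all libraries), 726 to 1022 (1365) and 973 to 1887 (1991). For the differences of responses it gave 0 to 0 in R2 minus R1, 0 to 1 in R3 minus R1 and 1 to 2 in R3 minus R2. The all-gene counts there were 1 to 11 (7 with all libraries), 180 to 299 (300) and 188 to 314 (309). Among populations it gave 2 to 4 for naive R2 against R1, 15 to 18 for naive R3 against R1, 9 to 11 for naive R3 against R2, 0 to 1 for CAWS R2 against R1, 13 to 19 for CAWS R3 against R1 and 7 to 10 for CAWS R3 against R2. In the same order, the naive comparisons had 588 to 805 (946), 2410 to 3013 (3074) and 1060 to 1620 (1646) of all genes. The CAWS comparisons had 227 to 458 (501), 2823 to 3736 (3907) and 1236 to 1912 (2027). Against monocytes, leaving out 1 library gave 24 to 28, 28 to 30, 24 to 27 and 20 to 25 members for naive R1, R2, R3 and CAWS R3. Of all genes, 7949 to 8179 (8401), 7767 to 8153 (8440), 7263 to 7626 (7825) and 5534 to 6287 (6322) passed there. CAWS R2 against CAWS R1 had 0 members without CAWS R1 replicate 1. The small log2 difference of Gapdh in R1 turned sign with no filter (-0.00268), limma voom (-0.02893) and only the groups compared (-0.01173), and ran from -0.1746 to 0.199 with single libraries left out (-0.04125, -0.0211 and -0.04543 without naive replicates 2 and 3 and CAWS replicate 1). That of Hif1a ran from -0.0492 to 0.1062 in R1 (-0.02977 without naive replicate 1 and -0.001607 without CAWS replicate 2) and from -0.04629 to 0.03902 in R2 (0.01597 without naive replicate 1). None of these passed the test, and the cause was not tested. The replicate block was also run across treatments and with monocytes, where the numbers were not taken to pair. There Hk3 in R1 had an edgeR adjusted p of 0.0379 (0.0572 without), Tpi1 in R2 0.0432 (0.0573) and Hif1a in naive R3 against monocytes 0.0579 (0.0497). Within treatments the block changed no call of a member beyond those given with the results. Of all genes, limma voom called 2808 in R2 (main 1365), 3283 in R3 (1991), 623 for R3 minus R2 (309), 790 for CAWS R2 against R1 (501) and 3939 for CAWS R3 against R2 (2027). With only the groups compared the counts were 2785 in R2, 1531 for naive R2 against R1 (946) and 794 for CAWS R2 against R1. For R2 minus R1 (7) they were 57, 14, 22, 33 and 15 with DESeq2, no filter, limma voom, only the groups compared and the block, and DESeq2 called 479 for R3 minus R1 (300). Shares of raw counts without division by length moved by more than the SD in 103 cases and by less in 44. Members with few counts, Ak4, Egln3 and P4ha2, are limited by depth.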
